A study of Mus musculus with 14 samples.

Results

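The fibroblast growth factor (FGF) pathway was described in cells sorted as osteochondroprogenitors, the precursors of chondrocytes and osteoblasts, which came from C57BL/6 embryos at day 16.5 of mouse development and were taken from digested limbs. Members were all genes whose symbol in the deposited table was an Fgf gene with a number, Fgfr1 to Fgfr4, Fgfrl1, a Sprouty (Spry) or Spred gene, Etv1, Etv4, Etv5, Dusp6, Frs2, Frs3, Flrt2, Flrt3 or Fgfbp1. The rule found 43 of the 21734 genes with a symbol. Every sorted cell carried the tetraspanin CD9, and the groups differed in CD73, the surface enzyme that makes adenosine from AMP, and in Thy1, a surface glycoprotein of mesenchymal cells. OCP4 cells had both markers, CD73+ Thy1+ (4 arrays), OCP1 cells were CD73+ Thy1- (3 arrays), OCP3 cells were CD73- Thy1+ (4 arrays), and OCP2 cells had neither, CD73- Thy1- (3 arrays). The labels name no treatment, allele or transgene for any group, and do not say whether embryos were pooled or whether replicates came from separate litters, so the p-values below reflect only how far these samples of a group spread, and that spread may be technical.

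FGFs are secreted proteins that bind tyrosine kinase receptors together with heparan sulfate. The activated receptor signals through the docking protein Frs2 to Ras and the kinase ERK, which turns on the transcription factors Etv4 and Etv5 and a set of inhibitors, among them Dusp6, the Sproutys and the Spreds, that damp the signal. In the growth plate, Fgfr3 in chondrocytes restrains their proliferation and Fgf9 and Fgf18 are known ligands for it, while Fgfr1 and Fgfr2 act in the perichondrium and in bone-forming cells. Fgf10 is the limb mesenchyme signal that acts on the overlying ectoderm through a splice form of Fgfr2.

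Values are log2 intensities of Affymetrix Mouse Gene 1.0 ST probe sets, 1 probe set per gene, so a difference of 1 unit is a 2-fold difference. Levels are compared between groups for the same gene, never between genes, because probe sets differ in brightness for the same amount of RNA. Summed intensities of marker lists, given below, are likewise compared only between groups. The brightest probe sets of a list weigh most in its sum, which is not a level of a cell type. Differences were tested with limma over all 21734 genes, and a gene was called at a Benjamini-Hochberg adjusted p below 0.05. Array medians were 328.1 to 346.8 intensity units, and the number of arrays limits the precision. The gates were visible in the RNA. Nt5e, the CD73 gene, stood at 13.19 ± 0.16 in OCP4 and 12.29 ± 0.16 in OCP1, against 9.46 ± 0.44 in OCP3 and 9.30 ± 0.15 in OCP2 (SD, n = 4, 3, 4 and 3). Thy1 stood at 13.22 ± 0.07 in OCP4 and 12.60 ± 0.12 in OCP3, against 9.33 ± 0.11 in OCP1 and 9.60 ± 0.36 in OCP2. As a check of the label, Sox9, the regulator of chondrogenic commitment, stood at 11.10 ± 0.20 in OCP4, 13.01 ± 0.11 in OCP1, 11.24 ± 0.08 in OCP3 and 12.47 ± 0.24 in OCP2. Runx2, the regulator of osteoblast commitment, stood at 11.19 ± 0.11 in OCP4, 11.00 ± 0.07 in OCP1, 11.62 ± 0.10 in OCP3 and 10.08 ± 0.20 in OCP2. Both were above the array medians in every group, and were picked as defining markers outside the naming rule.

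Most of the FGF genes differed between the sorted populations. A moderated F-test over the 4 groups called 29 of 43, or 67.4%, beside 39.5% of all genes. OCP1 had the highest mean of Fgfr3, Fgfrl1, Fgf9, Fgf18 and Fgf2 and the lowest of Dusp6 and Spry1. OCP4 had the highest mean of Fgf13, Fgfr1, Fgfr2 and Spred1 and the lowest of Fgf16 and Fgf18. OCP2 had the highest mean of Etv4, Etv5 and Fgfr4. In the heat map of centred values Fgf16, Fgf18, Fgfr3 and Fgfrl1 lie below their means in OCP4 and above them in OCP1.

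**Figure D1:**
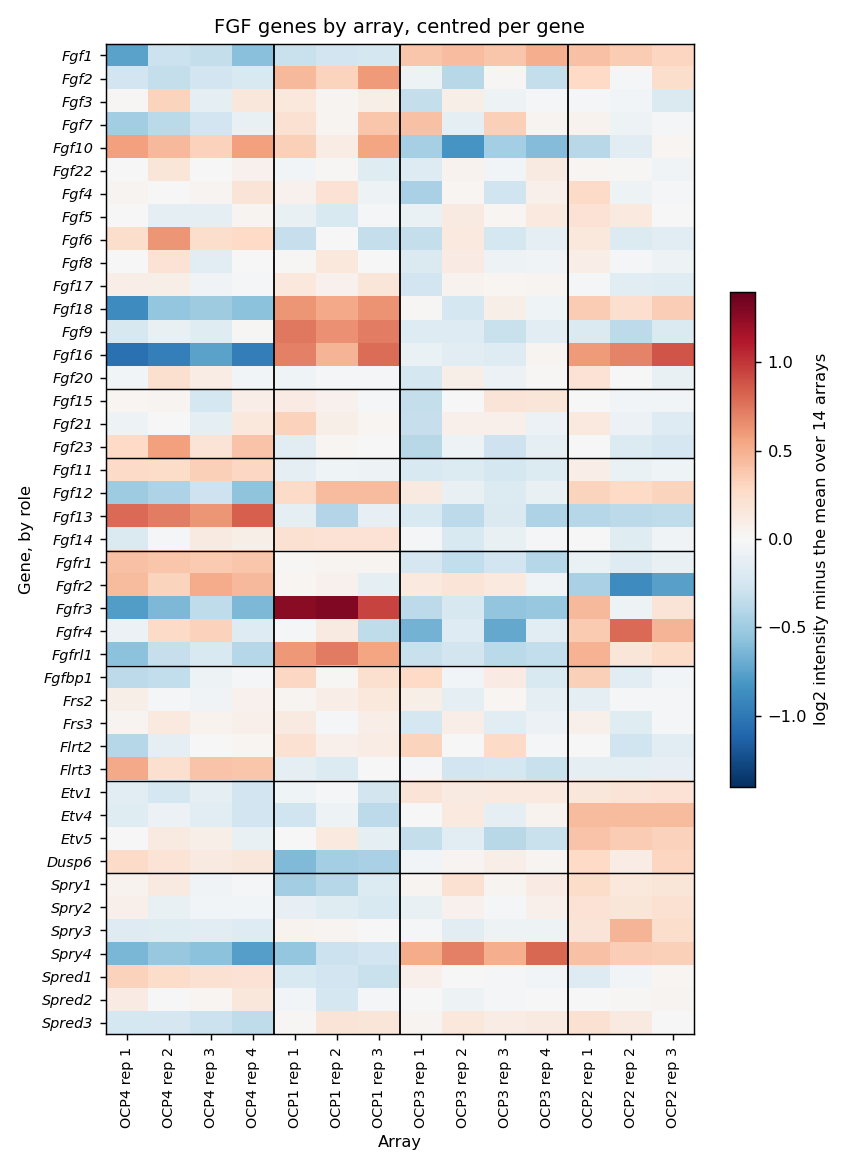
Heat map of the 43 FGF genes (rows, ordered by role: canonical ligands, endocrine ligands, intracellular homologous factors, receptors, binding protein with adaptors and FLRT proteins, ETS factors with Dusp6, and Sproutys with Spreds) on 14 arrays (columns, by group). Colour is log2 intensity minus that gene's mean over the arrays; Fgfr3 is reddest in the 3 OCP1 arrays, Fgf16 is bluest in the 4 OCP4 arrays and Fgf13 is red in OCP4.

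The pairwise comparisons called between 15 and 23 of the FGF genes. Thy1+ against Thy1- among CD73+ cells (OCP4 minus OCP1) called 23 of 43 FGF genes, with 11 higher and 12 lower in OCP4, beside 26.3% of all genes (13.8% higher and 12.4% lower). Among CD73- cells (OCP3 minus OCP2) 15 were called, and 14 of them were lower in OCP3, beside 16.1% of all genes in either direction with 9.48% lower and 6.63% higher. The single FGF gene higher in OCP3 than in OCP2 was Fgfr2, and 2 genes were higher with the dim filter, the alternative variance prior, or without replicate 1 of OCP1, 1 or 3 of OCP3, or 1 or 4 of OCP4, and 3 with array weights. The 14 lower genes became 9 without replicate 1 or 3 of OCP2 or with only the arrays of the 2 groups. CD73+ against CD73- called 19 genes in Thy1+ cells (OCP4 minus OCP3, 11 higher and 8 lower, beside 27.8% of all genes, 14.2% higher and 13.6% lower) and 16 in Thy1- cells (OCP1 minus OCP2, 6 higher and 10 lower, beside 11.0%, 4.43% higher and 6.56% lower). The 6 higher genes of OCP1 minus OCP2 became 3 without replicate 1 or 3 of OCP1 or replicate 2 of OCP2, and 1477 of all genes were called without replicate 1 of OCP1 and 1486 without replicate 2 of OCP2, against 2388 with all arrays. Of the diagonal pairs, OCP4 minus OCP2 called 23 (9 higher and 14 lower, beside 24.2%, 10.4% higher and 13.8% lower) and OCP1 minus OCP3 called 19 (11 higher and 8 lower, beside 24.4%, 11.9% higher and 12.5% lower). The median log2 difference over the 43 genes lay between -0.06 (OCP3 minus OCP2) and 0.11 (OCP1 minus OCP3), against -0.03 and 0.03 over all genes. These comparisons share groups, and their counts are not independent.

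In all, 30 members were called in at least 1 of the 6 pairwise comparisons, and 19 of them differed at least 1.5-fold in a comparison where they were called. Called differences of at least 1.5-fold numbered 9 in OCP4 minus OCP1 (beside 6.26% of all genes), 8 in OCP4 minus OCP3 (beside 6.21% of all genes), 11 in OCP4 minus OCP2 (beside 6.62% of all genes), 8 in OCP1 minus OCP2 (beside 2.77% of all genes), 9 in OCP1 minus OCP3 (beside 5.47% of all genes) and 6 in OCP3 minus OCP2 (beside 3.72%). The other 13 members were Fgf3, Fgf4, Fgf5, Fgf8, Fgf15, Fgf17, Fgf20, Fgf21, Fgf22, Fgfbp1, Flrt2, Frs2 and Frs3. Among these the largest difference was 0.38 log2 units and the lowest adjusted p was 0.0521, both for Fgfbp1, a carrier that releases FGFs from the matrix, which was lower in OCP4 than in OCP1. Of the 43 genes, 10 were dim in the sense that they exceeded the array median on fewer than 3 arrays: Fgf3, Fgf4, Fgf5, Fgf6, Fgf14, Fgf15, Fgf17, Fgf20, Fgf21 and Fgfbp1. The other 33 passed, and no member was left out of the test. Fgf9 and Fgf23 passed on only 4 arrays each, including all those of the group where they were high.

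Upstream sequence is shown for 4 genes whose differences recur below: the receptor genes Fgfr3 and Fgfrl1, which fell together in both Thy1+ against Thy1- comparisons, the ligand gene Fgf18, which fell with them, and the feedback gene Dusp6, which was lowest where Fgfr3 was highest. The windows are the 250 bases before the RefSeq start (build GRCm38.p6), printed 5′ to 3′ on the gene's strand, and 33 of the 43 members had at least 1 such window. Fgfr3 has 2 windows in that table, and the first is shown (chr5:33721474-33721723, plus strand, 66.8% G and C). The windows of Fgfrl1 (chr5:108693979-108694228, plus strand, 73.6%), Fgf18 (chr11:33147401-33147650, minus strand, 77.2%) and Dusp6 (chr10:99262981-99263230, plus strand, 56.4%) follow. Capitals mark CCGGAAGT, a sequence that ETS factors such as Etv4 and Etv5 can bind.
Fgfr3: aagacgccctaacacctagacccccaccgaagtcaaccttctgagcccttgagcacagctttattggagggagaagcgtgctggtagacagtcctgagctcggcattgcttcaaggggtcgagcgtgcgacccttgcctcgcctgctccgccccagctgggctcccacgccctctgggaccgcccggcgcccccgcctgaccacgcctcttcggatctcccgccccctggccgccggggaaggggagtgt
Fgfrl1: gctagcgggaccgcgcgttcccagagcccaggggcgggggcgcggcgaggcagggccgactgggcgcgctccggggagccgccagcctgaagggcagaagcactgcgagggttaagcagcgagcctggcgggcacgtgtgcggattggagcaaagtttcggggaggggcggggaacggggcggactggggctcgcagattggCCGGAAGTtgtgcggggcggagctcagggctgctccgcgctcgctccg
Fgf18: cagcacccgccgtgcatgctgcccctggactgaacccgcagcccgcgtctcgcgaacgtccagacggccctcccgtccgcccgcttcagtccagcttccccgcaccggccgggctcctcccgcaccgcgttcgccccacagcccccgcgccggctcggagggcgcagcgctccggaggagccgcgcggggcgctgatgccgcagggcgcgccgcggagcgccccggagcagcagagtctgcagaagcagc
Dusp6: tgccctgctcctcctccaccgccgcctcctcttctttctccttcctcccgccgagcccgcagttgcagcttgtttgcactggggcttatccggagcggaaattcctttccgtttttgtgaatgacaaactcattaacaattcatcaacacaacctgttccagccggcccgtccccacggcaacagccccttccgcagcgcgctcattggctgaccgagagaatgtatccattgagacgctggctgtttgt
The 8 letters occurred on either strand in 945 of 32851 windows in the table (2.88%) and in 2 of the 42 windows of FGF members, those of Fgfrl1 and Frs2. In Fgfrl1 they begin 48 bases before the start. ACAATGG, a sequence that SOX factors can bind, occurred in 3.02% of all windows and in 0 of the 42. Neither motif contains the other. A match is a description of the letters and not a binding site.

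Among the canonical ligands, Fgf16, Fgf18 and Fgf2 were lower in OCP4 than in OCP1, and Fgf9 stood apart in OCP1. Fgf9, a ligand of growth plate Fgfr3, had log2 intensities of 8.16, 8.28, 8.22 and 8.40 in OCP4, 9.12, 9.03 and 9.10 in OCP1, 8.21, 8.21, 8.07 and 8.24 in OCP3, and 8.18, 8.02 and 8.18 in OCP2. All 3 OCP1 arrays lay above the 11 others. Fgf9 was 1.76-fold lower in OCP4 than in OCP1 (log2 difference -0.82 ± 0.07, SE; limma adjusted p = 3.87e-07) and 1.94-fold higher in OCP1 than in OCP2 (0.95 ± 0.07; adjusted p = 2.96e-06). The differences of OCP4 from OCP3 (0.08 ± 0.06; adjusted p = 0.364) and of OCP3 from OCP2 (0.05 ± 0.07; adjusted p = 0.659) did not pass. In bulk RNA from sorted cells, fewer cells of a type and less RNA per cell cannot be told apart, here and below.

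Fgf16, from the same subfamily as Fgf9, had another pattern. Its log2 intensities were 8.61, 8.70, 8.91 and 8.69 in OCP4, 10.36, 10.13 and 10.44 in OCP1, 9.57, 9.50, 9.48 and 9.70 in OCP3, and 10.25, 10.35 and 10.54 in OCP2. OCP4 lay below every other array, and the OCP1 and OCP2 ranges overlapped. Fgf16 was 2.99-fold lower in OCP4 than in OCP1 (log2 difference -1.58 ± 0.09, SE; adjusted p = 2.56e-08), 1.78-fold lower in OCP4 than in OCP3 (adjusted p = 4.16e-06) and 1.76-fold lower in OCP3 than in OCP2 (adjusted p = 2.94e-05). Between OCP1 and OCP2 the log2 difference was -0.07 ± 0.10 (adjusted p = 0.746). The third gene of the subfamily, Fgf20, passed in none of the 6 comparisons and was dim.

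Fgf18, the perichondrial ligand known for its part in bone and cartilage growth, had log2 intensities of 10.91, 11.25, 11.29 and 11.21 in OCP4, 12.41, 12.32 and 12.42 in OCP1, 11.81, 11.54, 11.87 and 11.73 in OCP3, and 12.14, 12.02 and 12.13 in OCP2. The 4 groups did not overlap, and their order was OCP1, OCP2, OCP3, OCP4 from the highest. Fgf18 was 2.33-fold lower in OCP4 than in OCP1 (log2 difference -1.22 ± 0.09, SE; adjusted p = 1.97e-07) and 1.49-fold lower in OCP4 than in OCP3 (adjusted p = 1.17e-04). It was 1.28-fold lower in OCP3 than in OCP2 (adjusted p = 0.0152), a call lost without OCP2 replicate 1 (adjusted p = 0.0591) or OCP2 replicate 3 (0.0548). The difference of OCP1 from OCP2 was 0.29 ± 0.10 log2 units and missed the threshold (adjusted p = 0.0782), but passed in 6 alternatives, among them without OCP3 replicate 2 (0.048) or OCP4 replicate 1 (0.0283). The relatives Fgf8 and Fgf17 passed in none of the comparisons.

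Fgf2, a ligand that leaves cells without a classical signal peptide, showed the same order of group means. Its log2 intensities were 11.12, 11.06, 11.12 and 11.18 in OCP4, 11.85, 11.70 and 11.99 in OCP1, 11.32, 11.00, 11.41 and 11.06 in OCP3, and 11.67, 11.36 and 11.64 in OCP2. OCP4 and OCP3 overlapped, and OCP1 lay above all other arrays. Fgf2 was 1.66-fold lower in OCP4 than in OCP1 (log2 difference -0.73 ± 0.11, SE; adjusted p = 1.04e-04) and 1.57-fold higher in OCP1 than in OCP3 (adjusted p = 3.43e-04). Fgf7, which mesenchyme sends to epithelium, was 1.44-fold lower in OCP4 than in OCP1 (adjusted p = 0.00562) and 1.39-fold lower than in OCP3 (adjusted p = 0.00632), where the ranges overlapped.

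For a pair of ligands, Fgf10 and Fgf1, the CD73+ and CD73- arrays did not overlap. Fgf10 had log2 intensities of 11.45, 11.33, 11.19 and 11.44 in OCP4, 11.20, 10.97 and 11.42 in OCP1, 10.41, 10.04, 10.39 and 10.26 in OCP3, and 10.48, 10.71 and 10.90 in OCP2. Every CD73+ array was above every CD73- array. Fgf10 was 2.11-fold higher in OCP4 than in OCP3 (log2 difference 1.08 ± 0.11, SE; adjusted p = 4.52e-06) and 1.41-fold higher in OCP1 than in OCP2 (0.50 ± 0.13; adjusted p = 0.0239). The second call was lost without OCP1 replicate 1 (adjusted p = 0.0784) or 3 (0.102), without OCP2 replicate 1 (0.0902) or 2 (0.0686), and with only the arrays of the 2 groups (0.0603). Of the Thy1 comparisons, OCP4 and OCP1 differed by 0.15 ± 0.12 log2 units (adjusted p = 0.426), and Fgf10 was 1.34-fold lower in OCP3 than in OCP2 (-0.42 ± 0.12; adjusted p = 0.03). That call was lost without replicate 2 (0.079) or 3 (0.138) of OCP2, replicate 2 (0.0707) or 4 (0.0642) of OCP3, and with only the arrays of the 2 groups (0.0564).

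Fgf1, which binds all FGF receptors, ran the other way. Its log2 intensities were 8.42, 8.87, 8.83 and 8.58 in OCP4, 8.86, 8.90 and 8.92 in OCP1, 9.55, 9.60, 9.56 and 9.68 in OCP3, and 9.58, 9.52 and 9.47 in OCP2. All CD73- arrays lay above all CD73+ arrays. Fgf1 was 1.9-fold lower in OCP4 than in OCP3 (log2 difference -0.92 ± 0.08, SE; adjusted p = 7.67e-07) and 1.55-fold lower in OCP1 than in OCP2 (-0.63 ± 0.09; adjusted p = 5.89e-04). Neither Thy1 comparison passed for this gene, with differences of -0.22 ± 0.09 (OCP4 minus OCP1; adjusted p = 0.0858) and 0.07 ± 0.09 (OCP3 minus OCP2; adjusted p = 0.648).

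**Figure D2:**
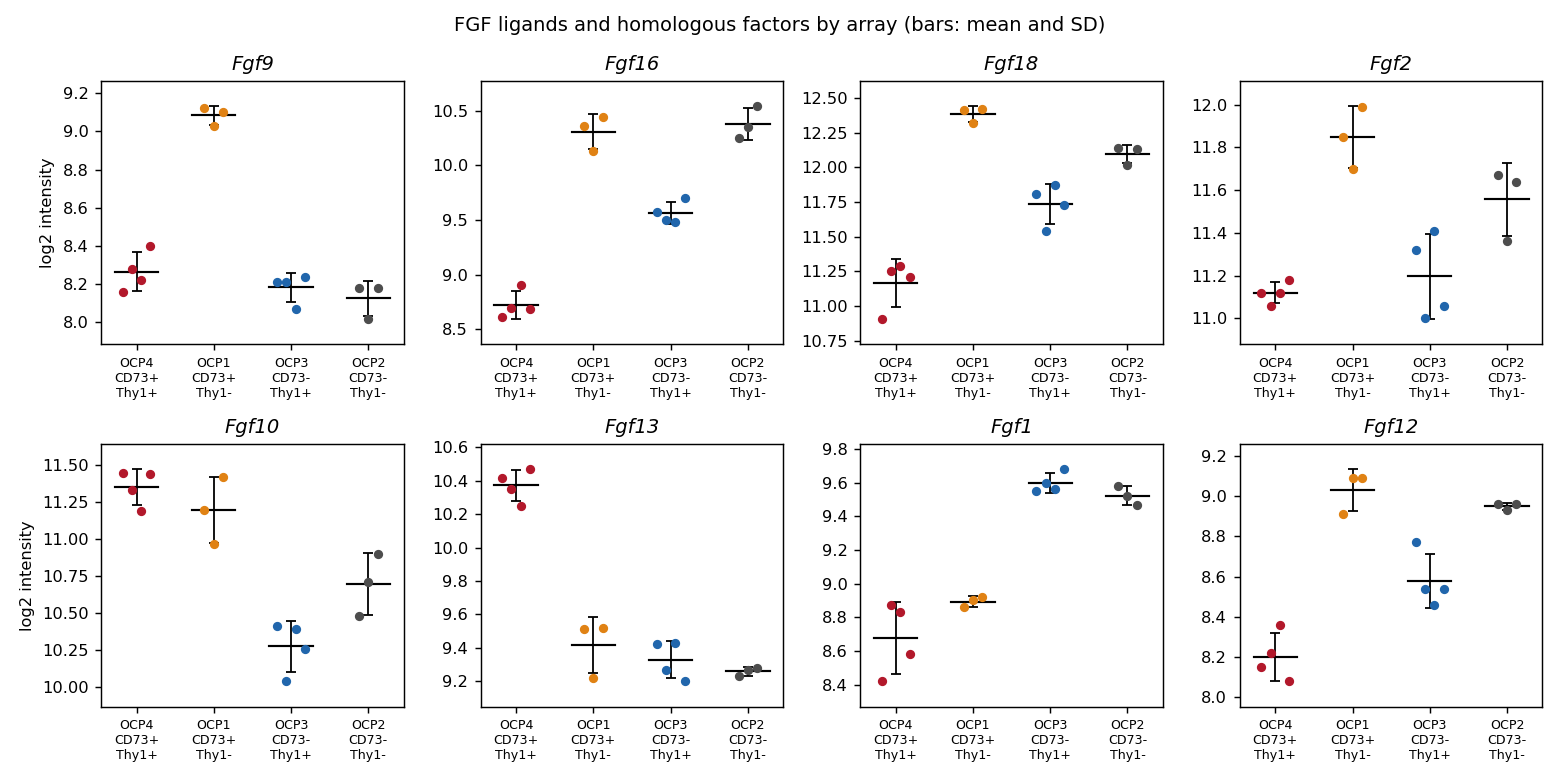
Log2 intensity of 8 FGF ligand and homologous factor genes on each array (points), with the mean and SD of each group (bars); groups run from OCP4 to OCP2 and each panel has its own axis, which does not start at 0. Fgf9 is high in OCP1, Fgf13 is high in OCP4, and Fgf10 and Fgf1 separate CD73+ from CD73- arrays in opposite directions.

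The intracellular FGF homologous factors resemble FGFs in sequence but stay in the cell, where they bind voltage-gated sodium channels. All 4 were called between OCP4 and OCP1, with Fgf13 and Fgf11 higher and Fgf12 and Fgf14 lower in OCP4. Fgf13 had log2 intensities of 10.42, 10.35, 10.25 and 10.47 in OCP4, 9.51, 9.22 and 9.52 in OCP1, 9.42, 9.27, 9.43 and 9.20 in OCP3, and 9.23, 9.27 and 9.28 in OCP2. The 4 OCP4 arrays lay well above the 10 others, which overlapped one another. Fgf13 was 1.94-fold higher in OCP4 than in OCP1 (log2 difference 0.96 ± 0.08, SE; adjusted p = 6.59e-07) and 2.06-fold higher than in OCP3 (adjusted p = 1.01e-07), while OCP1 and OCP2 differed by 0.15 ± 0.09 (adjusted p = 0.325). Fgf11 was 1.3-fold higher in OCP4 than in OCP1 and 1.41-fold higher than in OCP3 (adjusted p = 5.46e-05 and 1.41e-06).

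Fgf12 had log2 intensities of 8.15, 8.22, 8.36 and 8.08 in OCP4, 8.91, 9.09 and 9.09 in OCP1, 8.77, 8.54, 8.46 and 8.54 in OCP3, and 8.96, 8.93 and 8.96 in OCP2. It was high in both Thy1- groups, whose ranges overlapped, and lowest in OCP4. Fgf12 was 1.77-fold lower in OCP4 than in OCP1 (log2 difference -0.83 ± 0.08, SE; adjusted p = 2.18e-06) and 1.29-fold lower in OCP3 than in OCP2 (-0.37 ± 0.08; adjusted p = 0.00497). Fgf14 was dim, and its call between OCP4 and OCP1 (-0.22 ± 0.08; adjusted p = 0.0489) was lost without replicate 1, 2 or 3 of OCP1, 3 of OCP2, 1, 3 or 4 of OCP3, or 1 or 2 of OCP4 (adjusted p from 0.0539 to 0.134) and after median centring of each array (adjusted p = 0.0905).

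Of the endocrine FGFs, which act at a distance through Klotho coreceptors, only Fgf23, the phosphate hormone made by bone, was called in a pairwise comparison. Its log2 intensities were 8.50, 8.79, 8.41 and 8.62 in OCP4, 8.06, 8.25 and 8.21 in OCP1, 7.83, 8.15, 7.93 and 8.08 in OCP3, and 8.22, 8.03 and 7.98 in OCP2. OCP4 lay above every other array. Fgf23 was 1.5-fold higher in OCP4 than in OCP3 (log2 difference 0.59 ± 0.09, SE; adjusted p = 1.77e-04), 1.33-fold higher than in OCP1 (adjusted p = 0.00596) and 1.42-fold higher than in OCP2 (adjusted p = 0.00131). Fgf6, its neighbour in the RefSeq gene table and a ligand known from muscle, was dim, and was 1.47-fold higher in OCP4 than in OCP1 and 1.4-fold higher than in OCP3 (adjusted p = 0.00491 and 0.00703).

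All 5 receptor genes passed the F-test, with the highest mean in OCP4, OCP1 or OCP2 depending on the gene. Fgfr3, the receptor that restrains growth plate chondrocytes, had log2 intensities of 9.58, 9.73, 10.01 and 9.74 in OCP4, 11.63, 11.66 and 11.31 in OCP1, 10.00, 10.14, 9.81 and 9.83 in OCP3, and 10.82, 10.29 and 10.54 in OCP2. The 3 OCP1 arrays lay above all others, OCP2 came next without overlapping the Thy1+ groups, and OCP4 and OCP3 overlapped. Fgfr3 was 3.4-fold lower in OCP4 than in OCP1 (log2 difference -1.77 ± 0.13, SE; adjusted p = 1.98e-07), the largest fold among the FGF genes in the 6 comparisons. It was 3.01-fold higher in OCP1 than in OCP3 (adjusted p = 6.63e-07), 1.97-fold higher in OCP1 than in OCP2 (adjusted p = 4.39e-04) and 1.52-fold lower in OCP3 than in OCP2 (adjusted p = 0.00565). OCP4 and OCP3 differed by -0.18 ± 0.12 (adjusted p = 0.313).

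Fgfrl1, a receptor-like protein that binds FGFs but has no kinase domain, had the same order of group means. Its log2 intensities were 10.40, 10.66, 10.76 and 10.58 in OCP4, 11.58, 11.71 and 11.53 in OCP1, 10.67, 10.72, 10.60 and 10.63 in OCP3, and 11.47, 11.15 and 11.23 in OCP2. Both Thy1- groups lay above both Thy1+ groups, which overlapped each other. Fgfrl1 was 2.01-fold lower in OCP4 than in OCP1 (log2 difference -1.01 ± 0.09, SE; adjusted p = 7.89e-07) and 1.55-fold lower in OCP3 than in OCP2 (-0.63 ± 0.09; adjusted p = 1.56e-04). OCP4 and OCP3 differed by -0.06 ± 0.08 (adjusted p = 0.65). Fgfrl1 was 1.25-fold higher in OCP1 than in OCP2 (0.32 ± 0.09; adjusted p = 0.0402). That call was lost in 10 of 22 alternatives (adjusted p from 0.0503 to 0.17), among them without any 1 OCP1 array and without replicate 2 or 3 of OCP2.

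Cartilage genes were also brightest in OCP1, where the means of Fgfr3, Fgfrl1, Fgf18 and Fgf9 were highest. The summed intensity of the 9 cartilage markers ran over 14751 to 23817 units in OCP4, 77131 to 90738 in OCP1, 14104 to 19363 in OCP3 and 40027 to 50503 in OCP2. All 9 were lower in OCP4 than in OCP1 and in OCP3 than in OCP2, and 8 of 9 were higher in OCP1 than in OCP2. All 9 were lower in OCP4 than in OCP2 too. Fgfr3 and Fgfrl1 were called in the same direction as the list in these 4 comparisons. The Fgfrl1 call in OCP1 minus OCP2 was lost in 10 of 22 alternatives. Fgf18 was called in the direction of the list in those other than OCP1 minus OCP2, and Fgf9 only in OCP4 minus OCP1 and OCP1 minus OCP2. Fgf9 had differences of 0.05 in OCP3 minus OCP2 and 0.13 in OCP4 minus OCP2 (adjusted p = 0.659 and 0.175). In OCP4 minus OCP3, 5 cartilage markers were higher and 2 lower, while Fgf18 was lower and Fgfr3, Fgfrl1 and Fgf9 did not pass. Comp, a cartilage matrix protein, was 6.99-fold lower in OCP4 than in OCP1, and Matn1, another, was 7.16-fold lower in OCP3 than in OCP2 (adjusted p = 9.34e-08 and 1.22e-05). The 4 hypertrophic markers summed to 9653 to 10989 units in OCP4, 18066 to 22461 in OCP1, 4935 to 5714 in OCP3 and 4391 to 5191 in OCP2. All 4 were higher in OCP1 than in OCP2, and in OCP4 against OCP1 1 was higher and 3 lower. In OCP4 against OCP3, 3 were higher and 1 (Panx3) lower, and in OCP3 against OCP2 2 were higher and 2 lower. Intensities have no true zero, so no marker can be given as absent, and the part of these cell types in the FGF results was not tested.

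Fgfr1, the receptor of limb mesenchyme and osteoblast precursors, had log2 intensities of 13.66, 13.63, 13.61 and 13.63 in OCP4, 13.26, 13.28 and 13.28 in OCP1, 13.01, 12.90, 12.98 and 12.85 in OCP3, and 13.15, 13.06 and 13.14 in OCP2. OCP4 lay above OCP1, OCP1 above OCP2 and OCP2 above OCP3, with no overlap between neighbours in that order. Fgfr1 was 1.62-fold higher in OCP4 than in OCP3 (log2 difference 0.70 ± 0.04, SE; adjusted p = 2.55e-08) and 1.28-fold higher in OCP4 than in OCP1 (adjusted p = 5.24e-05). OCP1 and OCP2 differed by 0.16 ± 0.05 (adjusted p = 0.0666).

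Fgfr2, which the perichondrium and osteoblasts use and whose epithelial splice form binds Fgf10, had log2 intensities of 12.18, 12.05, 12.26 and 12.20 in OCP4, 11.77, 11.80 and 11.62 in OCP1, 11.88, 11.92, 11.88 and 11.69 in OCP3, and 11.29, 10.86 and 10.98 in OCP2. The probe set value does not separate the splice forms here. All OCP2 arrays lay below the 11 others, and OCP1 and OCP3 overlapped. Fgfr2 was 2.19-fold higher in OCP4 than in OCP2 (log2 difference 1.13 ± 0.09, SE; adjusted p = 5.03e-07). It was 1.74-fold higher in OCP3 than in OCP2 (adjusted p = 3.06e-05), 1.61-fold higher in OCP1 than in OCP2 (adjusted p = 4.16e-04), 1.36-fold higher in OCP4 than in OCP1 (adjusted p = 0.00245) and 1.26-fold higher in OCP4 than in OCP3 (adjusted p = 0.00972).

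Fgfr4, known in the embryo from skeletal muscle precursors, had log2 intensities of 10.26, 10.61, 10.67 and 10.16 in OCP4, 10.32, 10.47 and 9.99 in OCP1, 9.68, 10.16, 9.63 and 10.18 in OCP3, and 10.71, 11.14 and 10.82 in OCP2. OCP2 lay above all other arrays, and the other groups overlapped. Fgfr4 was 1.97-fold lower in OCP3 than in OCP2 (log2 difference -0.98 ± 0.17, SE; adjusted p = 0.00119). It was 1.55-fold lower in OCP1 than in OCP2 (adjusted p = 0.0428), a call lost without OCP1 replicate 1 (0.0983) or 3 (0.156), without OCP2 replicate 2 (0.174) or 3 (0.0787), after quantile normalization was run again (0.0537) and with the alternative variance prior (0.0514). It was 1.43-fold higher in OCP4 than in OCP3 (adjusted p = 0.0274), a call lost without OCP3 replicate 1 (0.0857) or 3 (0.0885) or OCP4 replicate 2 (0.0811) or 3 (0.0789). Skeletal muscle markers shared some of these differences. Of 6, 5 were lower in OCP1 than in OCP2, from Myh3, an embryonic myosin, at -1.12 log2 units to Des, the filament protein desmin, at -0.47. In OCP3 against OCP2, 4 were lower and 1 higher. In OCP4 against OCP3, where Fgfr4 was higher, 0 were higher and 1 (Des) was lower. In OCP4 against OCP2, where Fgfr4 did not pass (adjusted p = 0.068), 4 of the markers were lower. Their summed intensity was 4021 to 5456 units in OCP4, 3697 to 4979 in OCP1, 4625 to 7039 in OCP3 and 6318 to 7997 in OCP2, and their part in the Fgfr4 result was not tested.

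**Figure D3:**
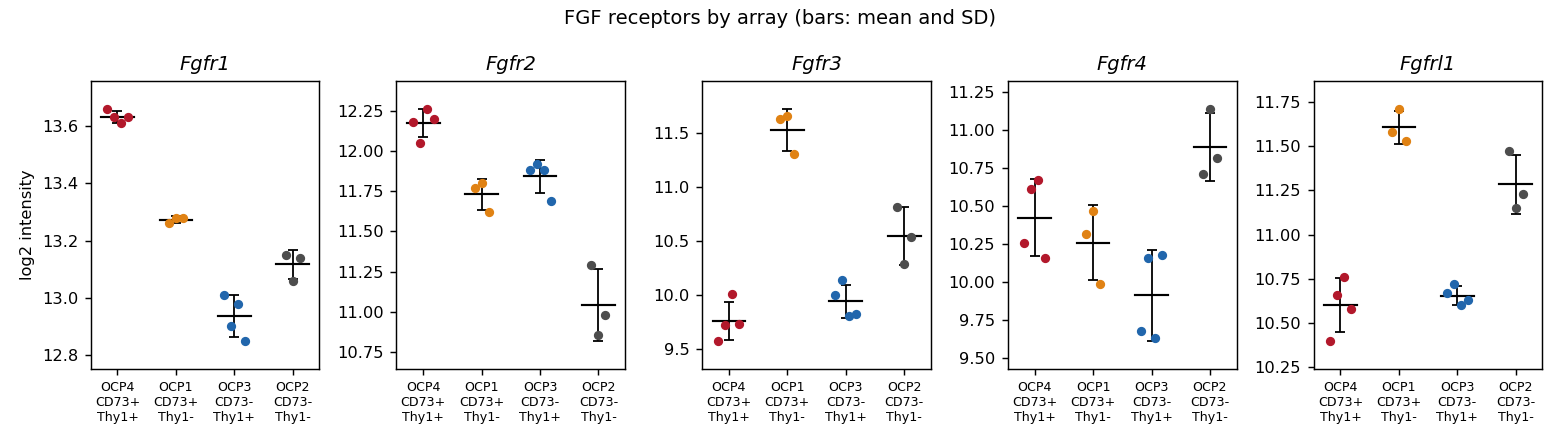
Log2 intensity of the 5 FGF receptor genes on each array (points), with the mean and SD of each group (bars); each panel has its own axis, which does not start at 0. Fgfr1 and Fgfr2 are highest in OCP4, Fgfr3 and Fgfrl1 in OCP1, and Fgfr4 in OCP2.

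Most of the ERK-induced feedback genes were lower in OCP4 and in OCP1 than in OCP2. Of the 11 Etv, Dusp6, Spry and Spred genes, 8 were lower in OCP1 than in OCP2 and the 3 Spreds did not pass (beside 6.56% of all genes), with a median log2 difference of -0.36 against -0.01 over all genes. In OCP4 against OCP2, 7 were lower and 1 higher (beside 13.8% and 10.4% of all genes), with a median of -0.33 against 0.01. In OCP3 against OCP2 the 4 called genes were lower (beside 9.48%). In OCP1 against OCP3, 7 were lower and 1 higher (beside 12.5% and 11.9%). In OCP4 against OCP1, 4 were higher and 3 lower (beside 13.8% and 12.4%), and in OCP4 against OCP3, 2 were higher and 3 lower (beside 14.2% and 13.6%).

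Several of these calls were lost when 1 array, also of a group outside the comparison, was left out or the processing was changed. Spry4 in OCP4 against OCP1 lost its call in 10 alternatives (adjusted p from 0.0515 to 0.174), among them without replicate 2 or 3 of OCP1, 2 or 3 of OCP2, and 1, 3 or 4 of OCP4. Spry3 in the same comparison lost it in 6 (0.0506 to 0.0805), among them without replicate 1 or 2 of OCP1 and 1 or 4 of OCP4. In OCP1 against OCP3, Spry2 lost its call in 9 (0.0528 to 0.129), among them without replicate 2 or 3 of OCP1 and 2, 3 or 4 of OCP3. Etv4 lost it in 5 (0.0619 to 0.13), among them without replicate 1 or 3 of OCP1 and 2 or 4 of OCP3, and Etv5, the 1 higher gene, lost it without replicate 2 of OCP1 (0.0553). Spry2 in OCP3 against OCP2 lost it in 7 (0.0593 to 0.0862), among them without any 1 OCP2 array and without replicate 1 or 3 of OCP3.

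Dusp6, a phosphatase that inactivates ERK, had log2 intensities of 11.81, 11.73, 11.66 and 11.70 in OCP4, 10.92, 11.06 and 11.08 in OCP1, 11.50, 11.58, 11.63 and 11.58 in OCP3, and 11.82, 11.64 and 11.84 in OCP2. The 3 OCP1 arrays lay below the 11 others, and OCP4 overlapped OCP2. Dusp6 was 1.63-fold higher in OCP4 than in OCP1 (log2 difference 0.70 ± 0.06, SE; adjusted p = 1.11e-06), 1.68-fold lower in OCP1 than in OCP2 (-0.75 ± 0.07; adjusted p = 1.11e-05) and 1.47-fold lower in OCP1 than in OCP3 (adjusted p = 1.38e-05). OCP4 and OCP3 differed by 0.15 ± 0.06 (adjusted p = 0.0712), and OCP3 and OCP2 by -0.19 ± 0.06 (adjusted p = 0.0503).

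Etv4, an ETS transcription factor of FGF signalling, had log2 intensities of 8.59, 8.68, 8.61 and 8.49 in OCP4, 8.48, 8.69 and 8.39 in OCP1, 8.77, 8.90, 8.62 and 8.81 in OCP3, and 9.20, 9.20 and 9.20 in OCP2. OCP2 lay above every other array, and the 3 other groups overlapped. Etv4 was 1.6-fold lower in OCP1 than in OCP2 (log2 difference -0.68 ± 0.08, SE; adjusted p = 1.13e-04), 1.52-fold lower in OCP4 than in OCP2 (adjusted p = 3.12e-05) and 1.34-fold lower in OCP3 than in OCP2 (adjusted p = 0.00143).

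Etv5, its close relative, had log2 intensities of 10.65, 10.77, 10.72 and 10.54 in OCP4, 10.63, 10.78 and 10.50 in OCP1, 10.31, 10.48, 10.25 and 10.33 in OCP3, and 11.04, 11.00 and 10.96 in OCP2. OCP2 was again above all others, and here OCP3 was below all others. Etv5 was 1.58-fold lower in OCP3 than in OCP2 (log2 difference -0.66 ± 0.07, SE; adjusted p = 2.39e-05), and a dimmer probe set of the gene gave -0.52. It was 1.29-fold lower in OCP1 than in OCP2 (adjusted p = 0.00869) and 1.26-fold higher in OCP4 than in OCP3 (adjusted p = 0.00234). Etv1, the third gene of that ETS subfamily, was lower in both CD73+ groups, 1.26-fold in OCP4 against OCP3 and 1.22-fold in OCP1 against OCP2 (adjusted p = 2.12e-04 and 0.00748).

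The 4 Sproutys, which block Ras-ERK signalling below the receptor, were all lower in OCP1 than in OCP2. Of these calls, that of Spry3 was lost without replicate 3 of OCP1 (0.0537), without replicate 2 of OCP2 (0.0598), with only the arrays of the 2 groups (0.0911) and after quantile normalization was run again (0.0538, adjusted p). Spry4 differed most, with log2 intensities of 11.28, 11.39, 11.35 and 11.15 in OCP4, 11.38, 11.62 and 11.66 in OCP1, 12.44, 12.63, 12.43 and 12.73 in OCP3, and 12.33, 12.27 and 12.26 in OCP2. The CD73- arrays lay above all CD73+ arrays, as they did for Fgf1. Spry4 was 2.4-fold lower in OCP4 than in OCP3 (log2 difference -1.26 ± 0.08, SE; adjusted p = 2.72e-08) and 1.67-fold lower in OCP1 than in OCP2 (-0.74 ± 0.09; adjusted p = 1.54e-04). Spry1 was 1.31-fold higher in OCP4 than in OCP1 (adjusted p = 9.56e-04), 1.47-fold lower in OCP1 than in OCP2 (adjusted p = 3.51e-04) and 1.38-fold lower in OCP1 than in OCP3 (adjusted p = 2.56e-04). Spry2 was 1.28-fold lower in OCP1 than in OCP2 (adjusted p = 0.00109), and Spry3 1.39-fold lower in OCP4 than in OCP2 (adjusted p = 3.83e-05).

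The Spreds, which inhibit Ras at the membrane, had 7 of their 8 pairwise calls in comparisons with OCP4. Spred1 was 1.43-fold higher in OCP4 than in OCP1 (log2 difference 0.51 ± 0.06, SE; adjusted p = 8.66e-06) and 1.19-fold higher than in OCP3 (adjusted p = 0.00237). Spred3 was lower in OCP4 than in OCP1, OCP3 and OCP2, by 1.32-fold, 1.3-fold and 1.31-fold (adjusted p = 1.61e-04, 1.06e-04 and 1.95e-04). The other 3 groups lay at 9.09 ± 0.09 (OCP1), 9.07 ± 0.05 (OCP3) and 9.08 ± 0.11 (OCP2), against 8.69 ± 0.06 in OCP4 (SD). Spred2 had a log2 difference of 0.18 ± 0.06 between OCP4 and OCP1 (adjusted p = 0.0431), a call lost in 13 of 22 alternative settings, 10 of them without a single array: replicate 1 or 2 of OCP1, 2 or 3 of OCP2, 1, 3 or 4 of OCP3, and 1, 3 or 4 of OCP4 (adjusted p from 0.0502 to 0.229).

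**Figure D4:**
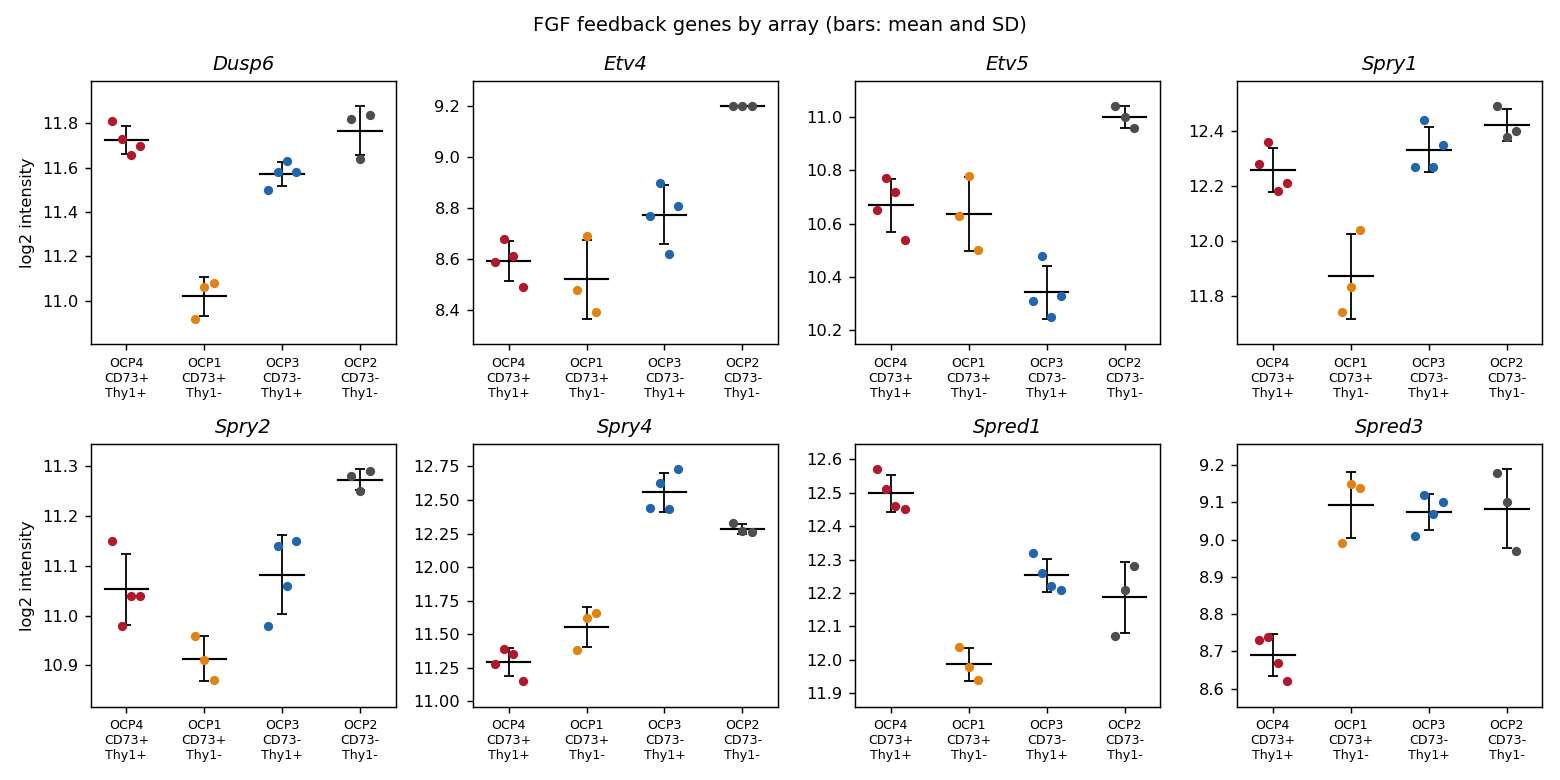
Log2 intensity of 8 feedback genes of FGF signalling on each array (points), with the mean and SD of each group (bars); each panel has its own axis, which does not start at 0. Dusp6, Spry1 and Spred1 are lowest in OCP1, Etv4 and Etv5 are highest in OCP2, and Spry4 is high in OCP3 and OCP2.

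Markers of some other cell types were lower in the CD73+ groups, as Fgf1 and Spry4 were. The 7 pericyte and smooth muscle markers were all lower in OCP4 than in OCP3, and in OCP1 against OCP2 5 were lower and 1 (Cspg4) higher. Their summed intensity was 18775 to 22194 units in OCP4, 16328 to 21721 in OCP1, 54291 to 64029 in OCP3 and 25277 to 27871 in OCP2. The 7 Schwann and nerve markers were all lower in OCP4 than in OCP3 and in OCP1 than in OCP2, with 3382 to 4982 units in OCP4, 3770 to 4483 in OCP1, 12276 to 15933 in OCP3 and 10589 to 13676 in OCP2. Of 7 endothelial markers, 6 were lower in OCP1 than in OCP2 and 3 lower in OCP4 than in OCP3, with sums of 8178 to 9885, 6476 to 7204, 12975 to 17086 and 14363 to 23704 units in OCP4, OCP1, OCP3 and OCP2. Etv5 was higher in OCP4 than in OCP3 (0.33 log2 units) and lower in OCP1 than in OCP2 (-0.36). Most called markers of these lists were lower in both comparisons. Osteoblast markers summed to 8322 to 12604 units in OCP4, 17013 to 18662 in OCP1, 19924 to 22833 in OCP3 and 9743 to 11668 in OCP2, and 5 of 6 were lower in OCP4 than in OCP3. Fibrous connective tissue markers summed to 101252 to 109419 units in OCP4, 83816 to 89039 in OCP1, 73238 to 82626 in OCP3 and 74799 to 77333 in OCP2. Haematopoietic markers summed to 2215 to 3366 units in OCP4, 1682 to 2104 in OCP1, 1600 to 2515 in OCP3 and 2057 to 2896 in OCP2. Of these 5 markers, 3 were higher in OCP4 than in OCP3 and 2 higher in OCP4 than in OCP1. No keratinocyte marker was called in a pairwise comparison, and their sums were 1391 to 2560 units over all arrays. The part of these cells in the FGF results was not tested.

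Among the docking and accessory genes the single gene called in a pairwise comparison was Flrt3, a transmembrane protein that interacts with FGF receptors. Its log2 intensities were 11.27, 10.97, 11.14 and 11.13 in OCP4, 10.60, 10.55 and 10.75 in OCP1, 10.71, 10.47, 10.50 and 10.43 in OCP3, and 10.61, 10.62 and 10.63 in OCP2. OCP4 lay above the 10 other arrays, which overlapped one another. Flrt3 was 1.52-fold higher in OCP4 than in OCP3 (log2 difference 0.60 ± 0.07, SE; adjusted p = 1.79e-05) and 1.41-fold higher than in OCP1 (adjusted p = 2.57e-04). It was 1.42-fold higher in OCP4 than in OCP2 (adjusted p = 2.10e-04). The docking proteins Frs2 and Frs3, which link the receptor to Ras, had differences of 0.16 ± 0.07 (OCP1 minus OCP2; adjusted p = 0.172) and 0.17 ± 0.07 (OCP4 minus OCP3; adjusted p = 0.0844), each the widest of the gene's 6 differences.

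Whether the CD73 difference depended on Thy1 was tested with an interaction term, which is the OCP4 minus OCP3 difference less the OCP1 minus OCP2 difference. It called 24 of 43 FGF genes, 14 positive and 10 negative, beside 18.0% of all genes (9.96% positive and 8.05% negative). Fgfr3 had the most negative term, -1.16 ± 0.19 (SE; adjusted p = 5.47e-04), with CD73 differences of -0.18 log2 units in Thy1+ cells and 0.98 in Thy1- cells. Fgf9 (-0.87 ± 0.09; adjusted p = 1.71e-05) and Fgf18 (-0.86 ± 0.13; adjusted p = 2.97e-04) were negative too. Dusp6 was positive (0.90 ± 0.09; adjusted p = 8.40e-06), with differences of 0.15 in Thy1+ cells and -0.75 in Thy1- cells. Etv5 had opposite signs, 0.33 in Thy1+ cells and -0.36 in Thy1- cells, with both differences called. Fgf13, Fgf11 and Fgfr1 had CD73 differences of 1.04, 0.50 and 0.70 in Thy1+ cells against 0.15, -0.07 and 0.16 in Thy1- cells. For Fgf1 (-0.30 ± 0.13; adjusted p = 0.128) and Fgfr2 (-0.36 ± 0.13; adjusted p = 0.076) the term did not pass.

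**Figure D5:**
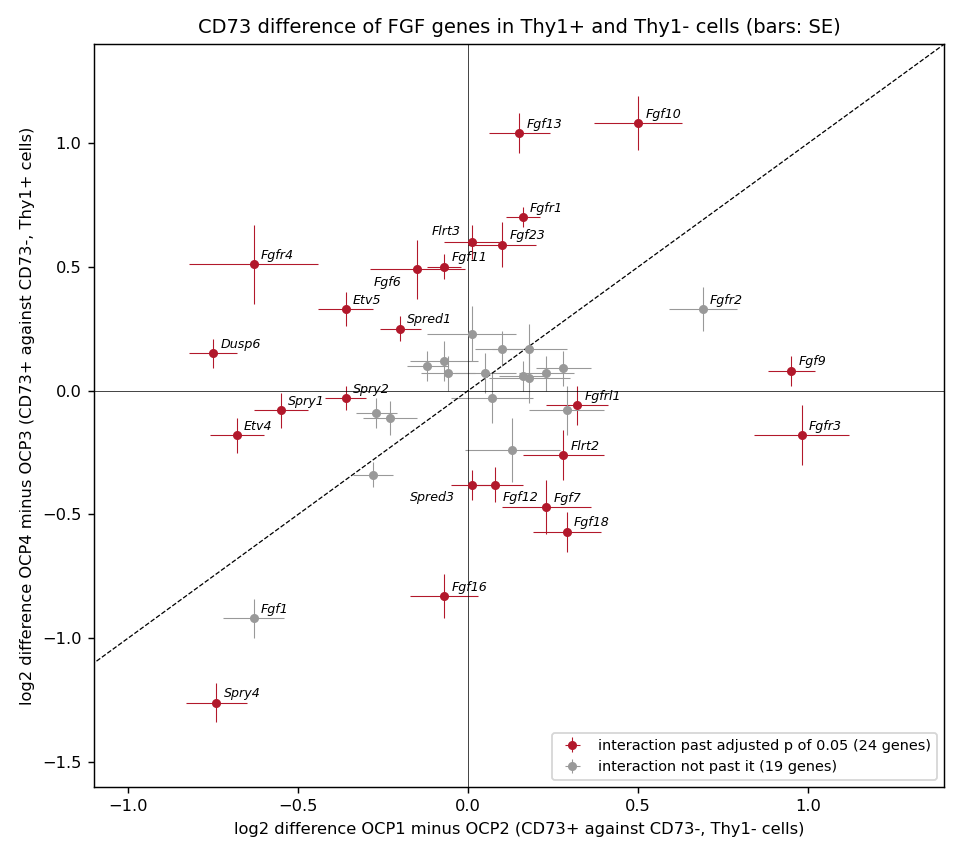
Log2 difference between CD73+ and CD73- groups in Thy1+ cells (OCP4 minus OCP3, vertical axis) against that in Thy1- cells (OCP1 minus OCP2, horizontal axis) for the 43 FGF genes, with SE bars and a dashed line of equality. The 24 genes whose interaction term was called are red; Fgfr3 and Fgf9 lie far to the right near 0 on the vertical axis, and Dusp6 far to the left.

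Beyond the 43 genes, 3 lists of other FGF pathway genes were read in the same fit. Most of these genes lay above the array medians, where calls were more frequent. Among the 13117 genes left by the dim filter, 5689 were called in OCP4 minus OCP1 and 5767 in OCP4 minus OCP3. In OCP3 minus OCP2 3605 of them were called, and in OCP1 minus OCP2 2783. These shares are larger than those over all genes. Of 23 coreceptor and heparan sulfate genes, which help FGFs bind their receptors, 4 were higher and 10 lower in OCP4 than in OCP1 (60.9% beside 26.3% of all genes), from the syndecan gene Sdc4 (1.81-fold lower) to the 6-O-sulfotransferase gene Hs6st1 (1.65-fold higher; adjusted p = 2.25e-06 and 1.01e-07). In OCP3 against OCP2, 2 were higher and 5 lower (30.4% beside 16.1%), with Klb, the coreceptor of endocrine FGFs, 1.83-fold lower (adjusted p = 0.00164). Klb was faint, with mean log2 levels of 7.20 in OCP3 and 8.07 in OCP2, both below the array medians. In OCP4 against OCP3 the counts were 7 higher and 8 lower (65.2% beside 27.8%), and in OCP1 against OCP2 they were 4 and 1 (21.7% beside 11.0%). The shares in OCP3 against OCP2 and in OCP1 against OCP2 were near those of the genes left by the dim filter.

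Of 23 adaptor and relay genes between receptor and nucleus, 1, the kinase subunit gene Pik3r1, was called between OCP1 and OCP2, or 4.35% beside 11.0% of all genes. In OCP4 against OCP3, 6 were higher and 9 lower (65.2% beside 27.8%), from the adaptor gene Gab1 (1.47-fold lower) to the ERK-dependent kinase gene Rps6ka3 (1.7-fold higher; adjusted p = 2.32e-07 and 4.42e-06). In OCP4 against OCP1 6 were higher and 3 lower (39.1% beside 26.3%), and in OCP3 against OCP2 4 and 1 (21.7% beside 16.1%). All 23 genes had means above the array medians in every group. In OCP4 against OCP1 and in OCP3 against OCP2, their shares were below those of the genes left by the dim filter.

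Of 20 other negative regulators and response genes, 3 were higher and 11 lower in OCP4 than in OCP1 (70.0% beside 26.3% of all genes), and 3 higher and 10 lower in OCP4 than in OCP3 (65.0% beside 27.8%). Lrig1, a membrane protein that restrains receptor tyrosine kinases, was 2.3-fold higher in OCP4 than in OCP1 and 2.53-fold higher than in OCP3 (adjusted p = 9.87e-08 and 9.36e-09). Phlda1 was 2.67-fold lower in OCP4 than in OCP3 and Spsb1 2.03-fold lower in OCP4 than in OCP1 (adjusted p = 4.25e-08 and 3.54e-08). In OCP1 against OCP2, 5 were higher and 4 lower (45.0% beside 11.0%). Dusp4, another ERK phosphatase, was 1.46-fold lower (adjusted p = 0.0441). Its relatives Dusp14 and Dusp5 were 1.37-fold and 1.24-fold higher (adjusted p = 6.10e-04 and 0.0202), and Ier3 was 1.37-fold higher (adjusted p = 0.00276). In OCP3 against OCP2, 7 were higher and 4 lower (55.0% beside 16.1%).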

How the data were processed

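RNA of 14 sorted samples was hybridised to 14 arrays of the Mouse Gene 1.0 ST type (Affymetrix). The values the authors deposited are linear intensities, 1 for each probe set on each array, and the submitters' processing notes name RMA and limma; no version of either, nor an annotation build, was found in these sources. The authors' deposited comparison table gave the gene symbols; the log2 differences and adjusted p-values the authors deposited there, for which their notes name limma and no settings, were not used as results. Rows of both tables were joined by the probe number as a position, and the mean log2 levels then matched within 5.17e-09 over 35556 rows. Log2 was taken here, where the plan had assumed log2 as deposited. The brightest probe set stood for each of 21734 symbols, and 26 symbols turned into dates were unnamed; the 43 FGF genes had 46 probe sets. Dim probe sets were kept.

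The fit used limma 3.58.1 (R 4.3.3), with 1 mean per group over the 14 arrays and p-values adjusted by Benjamini-Hochberg over all genes. On simulated data for OCP4 against OCP3 with 21734 genes, 99 of 100 genes changed by 1 log2 unit and 91 of 100 changed by 0.585 were recovered. Alternatives were the replicate number as a block, quantile normalization run again, median centring, a filter on dim genes, the mean of all probe sets, a variance prior with trend and robust estimation, array weights, only the 2 groups compared, and leaving out each array. Members with a 1.5-fold called difference, and Fgf9, Fgf10, Fgf18 and Fgfr3, are given by array. Other genes are named where they had the largest called difference of their list in a comparison, and Dusp5 and Dusp14 as relatives of Dusp4. The members, lists and comparisons were chosen with earlier results of these data known. No batch was given.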

Additional observations from a re-analysis of the deposited data

Results flagged for a closer look

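One array stood apart from its group: OCP3 replicate 4 had 11.69 for Fgfr2, against 11.88 to 11.92 on the 3 other OCP3 arrays, a gap of 0.830 of the group's range. It was the single such array in 38 gene and group combinations with 4 arrays, and chance alone marks about 1 in 20.

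The CD73 difference differed between Thy1+ and Thy1- cells for 24 FGF genes by the interaction term. The term, in log2 units, was negative for Fgfr3 (-1.16), Fgf9 (-0.87), Fgf18 (-0.86), Fgf16 (-0.76), Fgf7 (-0.70), Flrt2 (-0.54), Spry4 (-0.52), Fgf12 (-0.46), Spred3 (-0.39) and Fgfrl1 (-0.38). It was positive for Spry2 (0.33), Spred1 (0.45), Spry1 (0.48), Fgf23 (0.49), Etv4 (0.49), Fgfr1 (0.54), Fgf11 (0.56), Fgf10 (0.58), Flrt3 (0.59), Fgf6 (0.64), Etv5 (0.69), Fgf13 (0.89), Dusp6 (0.90) and Fgfr4 (1.14). Adjusted p-values from limma lay between 8.40e-06 (Dusp6) and 0.0481 (Fgfrl1).

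Calls of 5 of these terms were lost without single arrays. Fgf23 lost the call without OCP1 replicate 1 (adjusted p = 0.0728) or OCP2 replicate 1 (0.0639), and Flrt2 without OCP1 replicate 1 (0.0684) or OCP2 replicate 2 (0.0693). Fgf6 lost it without replicate 1 (0.0747) or 3 (0.07) of OCP1, replicate 1 of OCP2 (0.0708), and replicate 1 (0.0518) or 3 (0.0528) of OCP3. Fgf10 lost it without replicate 1 or 2 of OCP1, 2 or 3 of OCP2, 2 or 4 of OCP3, or 1 or 4 of OCP4 (adjusted p from 0.0509 to 0.0888). Fgfrl1 lost it without any single array but OCP2 replicate 1 and OCP4 replicate 3 (adjusted p from 0.0542 to 0.126). Flrt2, a relative of Flrt3, passed in none of the 6 pairwise comparisons.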

How the results depend on the processing

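The labels give replicate numbers that recur in the groups. Of 19 pairs of same-numbered arrays from different groups, 8 had a correlation of deviations over 0.1, with a median of 0.057 (range -0.419 to 0.395). Of 54 differently numbered pairs 18 did, with a median of 0.014 (range -0.455 to 0.434). Deviations were taken within groups of 3 or 4 arrays, so this check cannot exclude a batch shared by some numbers. With the replicate block, the numbers of FGF genes called were 16 for OCP1 minus OCP2, 20 for OCP4 minus OCP3, 12 for OCP3 minus OCP2, 20 for OCP4 minus OCP1, 23 for OCP4 minus OCP2 and 18 for OCP1 minus OCP3. Leaving out 1 array gave 11 to 17, 18 to 21, 10 to 17, 19 to 24, 22 to 24 and 17 to 20 calls in the same comparisons, 19 to 24 for the interaction and 28 to 31 for the F-test. The number of FGF genes called in either direction stayed within 1.5 times its main value in every comparison and alternative run; by direction, 3 in place of 6 were higher in OCP1 minus OCP2 without replicate 1 or 3 of OCP1 or 2 of OCP2, and in OCP3 minus OCP2 9 in place of 14 were lower and 2 or 3 in place of 1 higher under the settings named above. Over all genes, OCP1 minus OCP2 had 1477 and 1486 calls in place of 2388 without replicate 1 of OCP1 and 2 of OCP2. Of 139 called differences, 26 lost the call under at least 1 alternative, and none of the 145 differences checked changed sign. Among the called differences of at least 1.5-fold, those lost were Fgfr4 between OCP1 and OCP2 and Fgf6 in the interaction. With the replicate block, calls were lost for Fgfrl1 (OCP1 minus OCP2, adjusted p = 0.0823, and the interaction, 0.0904), Fgf11, Fgfr1 and Spry2 (OCP3 minus OCP2, 0.0512, 0.0507 and 0.0594), Spred2, Spry3 and Spry4 (OCP4 minus OCP1, 0.0664, 0.0583 and 0.0663) and Spry2 (OCP1 minus OCP3, 0.0959); the cause was not tested. The dim filter left 33 FGF genes, so Fgf6 and Fgf14 have no value there.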
